A study of Mus musculus with 14 samples.

Results

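The comparison described here is that of chromatin accessibility in regulatory T (Treg) cells on day 3 of 5-ph-IAA treatment, between 4 mice in which the Foxp3 protein could be degraded and 4 control mice. Its members were the windows of 201 bp with a mean count of 10 or more over these 8 libraries, which kept 235515 of the 240778 windows in the count table and left out 5263. The same counts were also summed over 158380 regions made by joining overlapping windows, over all windows whose nearest protein-coding start site within 1 Mb was that of 1 gene (a gene sum; 16238 genes had at least 1 window, with a median of 9), and over the windows within 1 kb of a start site (a promoter; 11632 genes). The day 3 libraries were 8 of the 14 in the series, and the other 6 came from mice treated for 7 days.

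Both day 3 groups were Treg cells from spleen and lymph nodes, both carried the Foxp3-AID allele, and both received 5-ph-IAA for 3 days. They differed at ROSA26: the first group was Foxp3-AID ROSA26-TIR1(F74G) (4 mice, TIR1 mice below) and the second Foxp3-AID ROSA26-WT (4 mice, WT mice below). In the study's methods the Foxp3-AID allele encodes the degron fusion together with a ZsGreen reporter and Cre recombinase, and TIR1(F74G) with an mCherry reporter lies in ROSA26 behind a loxP-flanked stop that this Cre removes, so TIR1 is made only in cells that have expressed Foxp3. The study's gate for Treg cells is CD4+ TCRβ+ ZsGreen+, with mCherry+ added for TIR1 mice, so the genotype, this added gate and Foxp3 loss cannot be told apart here. WT cells carry the fusion protein too, so the comparison says nothing on the degron tag itself, and the labels give neither the activation state of the cells nor the sex of the mice. The study's text describes its accessibility data as coming from heterozygous mice on day 7, with resting and activated cells sorted apart, and whether that holds for the libraries used here, which include day 3, is not known. Each library is taken as 1 mouse by the animal number in its name, and the p-values measure the spread between these libraries.

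Foxp3 is the X-linked forkhead transcription factor that defines Treg cells, which restrain other T cells, depend on interleukin 2 and carry its high-affinity receptor. An auxin-inducible degron lets the plant adaptor TIR1 bring a ubiquitin ligase to the tagged protein when the auxin analogue is present, so that the protein is destroyed while its gene stays intact. ATAC-seq counts where the transposase Tn5 can enter DNA: open promoters give the strongest signal, and enhancers, which can lie far from the gene they act on, give weaker and more cell-type-specific signal.

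Total counts ran from 11221502 to 17923213 in the WT libraries (median 15132603) and from 5653289 to 18728202 in the TIR1 libraries (median 12309115). TIR1 replicate 1 was the shallowest, with 1592 windows at 0 against 2 to 36 in the other 7. No 2 libraries of a group held identical values, and their counts differed by 1.62 to 2.46 times the variance that counting alone gives. The Treg identity genes were accessible in both groups, with a summed level over 8 genes of 1148 to 1178 CPM (counts scaled to the normalised library size) in WT and 1137 to 1172 CPM in TIR1 mice. Of markers of other cells, Ms4a1 and Spib (B cells) and Csf1r (myeloid cells) had no window. The summed level of the 7 B cell markers that had one was 167 to 183 CPM in WT and 167 to 212 CPM in TIR1 mice, and that of 8 myeloid markers 93.1 to 109 CPM and 82.7 to 101 CPM. In bulk samples, fewer cells of a type and less signal per cell cannot be told apart.

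Coa4 lies in a stretch of chromosome 7 that held more windows with small p-values than any other stretch of its length. Promoter sequences of the genes with the leading promoter differences, of Il2ra and of Coa4 are shown because the values below refer to them. Each runs 5′ to 3′ on the gene's strand, from 250 bases before to 50 after the start site, as RefSeq gives it for GRCm38. Capitals mark every match, on either strand and whether or not matches overlap, to 6 short motifs: the forkhead motif GTAAACA, the ETS motif CCGGAA, the AP-1 motif TGANTCA, the Sp1 motif GGGCGG, the box of basal promoters TATAAA and the Runx motif TGTGGT. The positions are Gja1 chr10:56377050-56377349, plus strand; Vegfc chr8:54077282-54077581, plus strand; Plpp3 chr4:105157097-105157396, plus strand; Pold4 chr19:4231643-4231942, plus strand; Bsdc1 chr4:129461429-129461728, plus strand; Rhoa chr9:108305910-108306209, plus strand; Prr11 chr11:87108665-87108964, minus strand; Il2ra chr2:11642542-11642841, plus strand; Coa4 chr7:100536850-100537149, plus strand. The first 3 genes had more signal in TIR1 mice and the next 4 less, without passing the test across promoters.
Gja1: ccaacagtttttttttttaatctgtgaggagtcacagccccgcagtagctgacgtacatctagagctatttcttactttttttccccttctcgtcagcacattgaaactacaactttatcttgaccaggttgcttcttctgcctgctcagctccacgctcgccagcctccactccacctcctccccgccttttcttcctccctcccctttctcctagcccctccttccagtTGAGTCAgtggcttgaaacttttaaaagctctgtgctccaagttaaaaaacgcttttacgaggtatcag
Vegfc: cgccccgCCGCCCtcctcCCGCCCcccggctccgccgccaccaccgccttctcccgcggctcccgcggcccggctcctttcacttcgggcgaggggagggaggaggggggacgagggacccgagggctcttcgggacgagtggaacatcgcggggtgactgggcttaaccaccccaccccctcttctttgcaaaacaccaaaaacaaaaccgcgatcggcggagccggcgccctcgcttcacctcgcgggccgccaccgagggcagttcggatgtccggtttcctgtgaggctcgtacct
Plpp3: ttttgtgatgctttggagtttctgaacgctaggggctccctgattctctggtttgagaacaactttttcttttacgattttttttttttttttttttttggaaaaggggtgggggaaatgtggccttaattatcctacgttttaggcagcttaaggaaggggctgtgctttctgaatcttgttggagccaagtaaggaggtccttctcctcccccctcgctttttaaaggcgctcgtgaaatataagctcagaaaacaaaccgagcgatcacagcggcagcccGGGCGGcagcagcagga
Pold4: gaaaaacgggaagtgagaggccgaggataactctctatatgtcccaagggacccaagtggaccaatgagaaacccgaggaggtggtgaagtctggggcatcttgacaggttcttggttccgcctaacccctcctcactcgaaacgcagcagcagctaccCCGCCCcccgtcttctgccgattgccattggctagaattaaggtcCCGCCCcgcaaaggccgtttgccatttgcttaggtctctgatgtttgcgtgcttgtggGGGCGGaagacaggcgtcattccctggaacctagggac
Bsdc1: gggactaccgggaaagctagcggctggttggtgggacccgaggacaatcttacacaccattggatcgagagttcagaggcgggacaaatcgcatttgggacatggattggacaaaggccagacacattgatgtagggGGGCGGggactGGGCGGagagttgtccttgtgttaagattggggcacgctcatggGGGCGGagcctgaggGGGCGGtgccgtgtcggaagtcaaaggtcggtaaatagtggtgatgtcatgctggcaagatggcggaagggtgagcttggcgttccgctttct
Rhoa: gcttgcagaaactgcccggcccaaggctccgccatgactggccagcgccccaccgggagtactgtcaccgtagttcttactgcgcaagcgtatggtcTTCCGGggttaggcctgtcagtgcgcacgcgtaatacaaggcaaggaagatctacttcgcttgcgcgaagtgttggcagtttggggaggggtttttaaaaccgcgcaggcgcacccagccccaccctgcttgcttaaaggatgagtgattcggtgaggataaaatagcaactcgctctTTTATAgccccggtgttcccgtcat
Prr11: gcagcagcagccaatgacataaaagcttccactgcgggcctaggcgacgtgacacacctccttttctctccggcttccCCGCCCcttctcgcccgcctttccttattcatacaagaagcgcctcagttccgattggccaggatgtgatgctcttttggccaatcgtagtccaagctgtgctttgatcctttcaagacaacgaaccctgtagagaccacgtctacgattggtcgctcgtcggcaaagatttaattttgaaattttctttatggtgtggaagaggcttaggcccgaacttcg
Il2ra: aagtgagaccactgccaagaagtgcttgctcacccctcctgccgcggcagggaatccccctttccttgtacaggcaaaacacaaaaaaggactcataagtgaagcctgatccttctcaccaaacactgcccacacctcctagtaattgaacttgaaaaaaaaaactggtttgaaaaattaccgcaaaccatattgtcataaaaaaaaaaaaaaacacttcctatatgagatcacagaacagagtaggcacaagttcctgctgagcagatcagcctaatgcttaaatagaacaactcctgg
Coa4: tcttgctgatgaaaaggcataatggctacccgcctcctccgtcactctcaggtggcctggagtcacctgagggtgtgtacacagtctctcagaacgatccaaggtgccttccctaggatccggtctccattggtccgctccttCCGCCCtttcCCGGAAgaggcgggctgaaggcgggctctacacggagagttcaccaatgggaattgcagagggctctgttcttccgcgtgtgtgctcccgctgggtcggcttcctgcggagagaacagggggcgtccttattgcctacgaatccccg

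No single window passed the test: 0 of 235515 windows, or 0%, had an adjusted p under 0.05 (quasi-likelihood test of edgeR, adjusted over all windows by Benjamini and Hochberg), and the smallest adjusted p was 0.0827. Unadjusted p-values under 0.05 were found for 17780 windows, 3.93% of all on the higher side in TIR1 mice and 3.62% on the lower side, and DESeq2 also called 0. Leaving out TIR1 replicate 1, the shallowest library, gave 30 windows, leaving out TIR1 replicate 2 gave 13, WT replicate 4 gave 7 and TIR1 replicate 3 gave 3. The groups of 4 did not overlap in 1.99% of windows on the higher side and 2.14% on the lower side. Of 156098 joined regions tested, 0 (0%) passed, with 11756 at an unadjusted p under 0.05 (4.34% higher and 3.19% lower) and 26 called by DESeq2. Promoters gave 0 calls of 11625 (0%), 1531 at an unadjusted p under 0.05 (6.9% higher and 6.27% lower) and 44 called by DESeq2. Gene sums gave 12 calls of 16229 (0.0739%), all higher in TIR1 mice, and 308 with DESeq2, 225 higher and 83 lower.

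How large a change these 8 libraries could have hidden follows from the standard errors. All log2 fold changes below are TIR1 over WT, called log2 differences where they belong to 1 feature and given ± their standard error. The median standard error was 0.27 for windows, 0.25 for regions, 0.096 for gene sums and 0.090 for promoters. The whole 95% interval lay inside a 2-fold change in either direction for 76.9% of windows, 94.7% of gene sums and 96.9% of promoters. It lay inside a 1.5-fold change for 30.3% of windows, 81.4% of gene sums and 86.7% of promoters. A 1.5-fold change in either direction lay outside the interval at most promoters, whereas for most single windows the interval reached past such a change in at least 1 direction.

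The 12 gene sums that passed were led by Twist1, a basic helix-loop-helix transcription factor best known from mesenchyme (chromosome 12, 33957671 to 33959831; 46 windows). Its summed accessibility was 62.0, 57.6, 54.1 and 56.5 CPM in the WT mice and 74.7, 82.6, 95.7 and 79.3 CPM in the TIR1 mice. Every TIR1 mouse lay above every WT mouse, with a log2 difference of 0.54 ± 0.081 (adjusted p = 0.0364). Plscr4, a phospholipid scramblase of the plasma membrane (chromosome 9, 92457372 to 92493513; 24 windows), had 28.3, 26.9, 21.4 and 21.0 CPM in the WT mice and 38.2, 41.9, 54.6 and 35.6 CPM in the TIR1 mice. The groups were apart again, by a log2 difference of 0.82 ± 0.13 (adjusted p = 0.0364). Nbea encodes neurobeachin, a membrane trafficking protein of neurons (chromosome 3, 55625195 to 56183748; 11 windows), and gave 10.5, 11.9, 12.05 and 12.2 CPM in the WT mice and 23.1, 16.7, 22.0 and 23.4 CPM in the TIR1 mice. Its log2 difference of 0.85 ± 0.14 (adjusted p = 0.0364) was the largest of the 12, and TIR1 replicate 2 was the lowest of its group.

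Epha3, an ephrin receptor tyrosine kinase (chromosome 16, 63543532 to 63864175; 45 windows), had 46.5, 35.4, 36.0 and 34.3 CPM in the WT mice and 62.8, 54.7, 61.5 and 51.3 CPM in the TIR1 mice. WT replicate 1 was nearest to the TIR1 mice, and the log2 difference of 0.60 ± 0.10 (adjusted p = 0.0364) passed. Boc, a co-receptor of hedgehog signalling (chromosome 16, 44485045 to 44558870; 23 windows), had 31.4, 32.5, 27.8 and 30.2 CPM in the WT mice and 37.0, 50.2, 52.9 and 44.0 CPM in the TIR1 mice, with TIR1 replicate 1 lowest in its group and a log2 difference of 0.61 ± 0.10 (adjusted p = 0.0364). For Gja1, the gap junction protein connexin 43 (chromosome 10, 56377300 to 56390419; 28 windows), the values were 41.2, 38.8, 32.7 and 39.2 CPM in the WT mice and 50.5, 53.1, 58.2 and 52.9 CPM in the TIR1 mice. The groups did not overlap, with a log2 difference of 0.50 ± 0.086 (adjusted p = 0.0364). In each of the remaining 6 the groups did not overlap either. Khdrbs3, an RNA-binding protein (chromosome 15, 68928392 to 69101794), had a log2 difference of 0.48 ± 0.088 (adjusted p = 0.0456). Iyd, the iodotyrosine deiodinase of the thyroid (chromosome 10, 3540274 to 3554880), had a log2 difference of 0.60 ± 0.11 (adjusted p = 0.0364), and Hlf, a PAR bZIP transcription factor (chromosome 11, 90336535 to 90390917), a log2 difference of 0.47 ± 0.085 (adjusted p = 0.0456). For Tmem161b (chromosome 13, 84222296 to 84295966) the log2 fold change was 0.42, for Ccdc50 (chromosome 16, 27387065 to 27452218) 0.38, and for Adgrl2, the adhesion receptor latrophilin 2 (chromosome 3, 148815586 to 148989096), 0.35 over 246 windows. A gene sum names the nearest start site only, and none of these values is a measure of transcription.

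**Figure D1:**
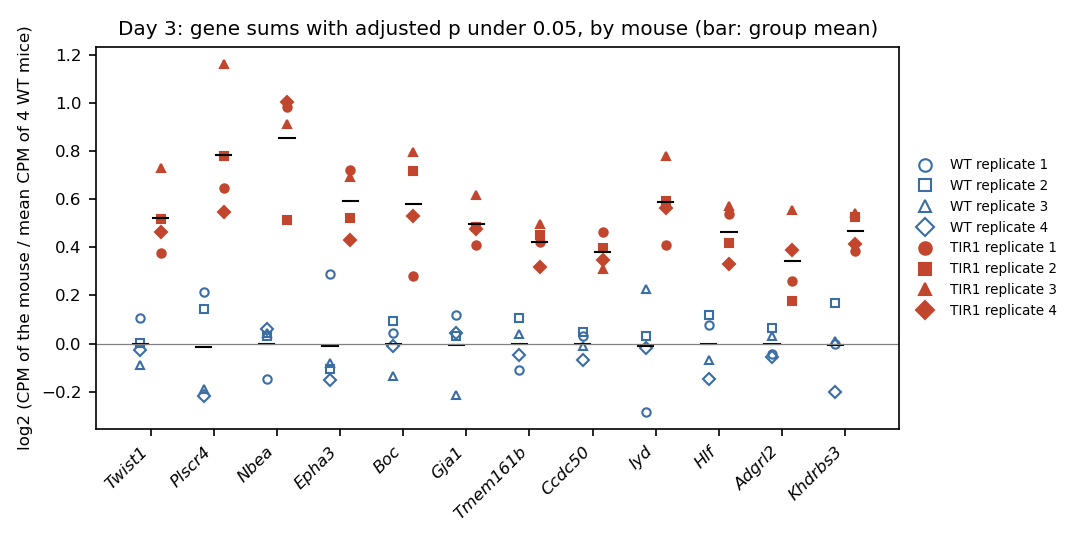
The 12 gene sums that passed, as the log2 of a mouse's CPM over the mean CPM of the 4 WT mice (vertical axis), 1 point per mouse with open WT and filled TIR1 symbols and bars at the group means. For each gene every TIR1 point lies above every WT point, as for Twist1 with 54.1 to 62.0 against 74.7 to 95.7 CPM.

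Across all gene sums the groups did not overlap in 3.82% on the higher side and in 4.44% on the lower side, and unadjusted p-values under 0.05 were reached by 9.44% on the higher and 7.94% on the lower side. The 12 calls depended on single libraries. With TIR1 replicate 3, TIR1 replicate 4, WT replicate 3 or WT replicate 4 left out there was no call, and without WT replicate 1 there were 2. Without TIR1 replicate 1 there were 149 calls and without TIR1 replicate 2 there were 142, with the 12 among them each time; without WT replicate 2 there were 19, of which 10 were among the 12. The mouse names in the labels begin with 1 of 2 prefixes, E for WT replicate 4 and TIR1 replicates 3 and 4, and with the prefix as a term 5 gene sums passed, 4 of them among the 12.

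No gene sum passed on the lower side. The smallest p there belonged to Sh3bgrl3, which encodes a small thioredoxin-fold protein (chromosome 4, 134127406 to 134128733), with 97.0, 89.9, 91.6 and 89.3 CPM in the WT mice and 67.6, 72.1, 65.9 and 76.8 CPM in the TIR1 mice and a log2 difference of -0.38 ± 0.071 (adjusted p = 0.0507). Next came Pold4, a small subunit of DNA polymerase delta, with a log2 difference of -0.37 ± 0.076 (adjusted p = 0.0626), and Cela1, a pancreatic-type elastase, with a log2 difference of -0.34 ± 0.070 (adjusted p = 0.0626). Rhoa, the small GTPase that organises actin, had 139, 111, 118 and 140.1 CPM in the WT mice and 89.2, 105, 94.1 and 98.9 CPM in the TIR1 mice, groups that did not overlap and a log2 difference of -0.38 ± 0.081 (adjusted p = 0.0626). DESeq2 called 83 gene sums on this side.

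Where a gene sum stood in accessibility went along with its sign. Gene sums were put into 10 equal bins by CPM per window. In the weakest bin the median log2 fold change was 0.29, and 422 of 1622 gene sums had an unadjusted p under 0.05 on the higher side against 4 on the lower side. The median went through 0.16, 0.092 and 0.032 in the next bins to -0.088 in the strongest, where 7 of 1623 were on the higher and 355 on the lower side. Of the 12 gene sums that passed, 10 lay in the 3 weakest bins. On day 7, in other mice, the same bins ran the opposite way, from -0.13 in the weakest to 0.029 in the strongest. One day 7 library, WT replicate 3, was shallow (6348754 total counts) and had the largest share of its signal in weak windows. The weakest of 5 bins of windows by accessibility took 3.95, 4.18 and 5.44% of the counts in the day 7 WT mice. In the day 7 TIR1 mice it took 4.19, 4.32 and 3.95%. How far the day 7 medians rest on that library was not tested. When the trend with count was first taken out at the windows, the medians ran from 0.14 to -0.023, and 2 gene sums passed, Twist1 and Plscr4. The log2 fold changes of the 12 then ran from 0.27 for Adgrl2 to 0.71 for Nbea, beside 0.35 and 0.85 before, as in Ccdc50 with 0.37 beside 0.38 and in Gja1 with 0.40 beside 0.50, and the adjusted p of the 10 that no longer passed ran from 0.0767 to 0.179.

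**Figure D2:**
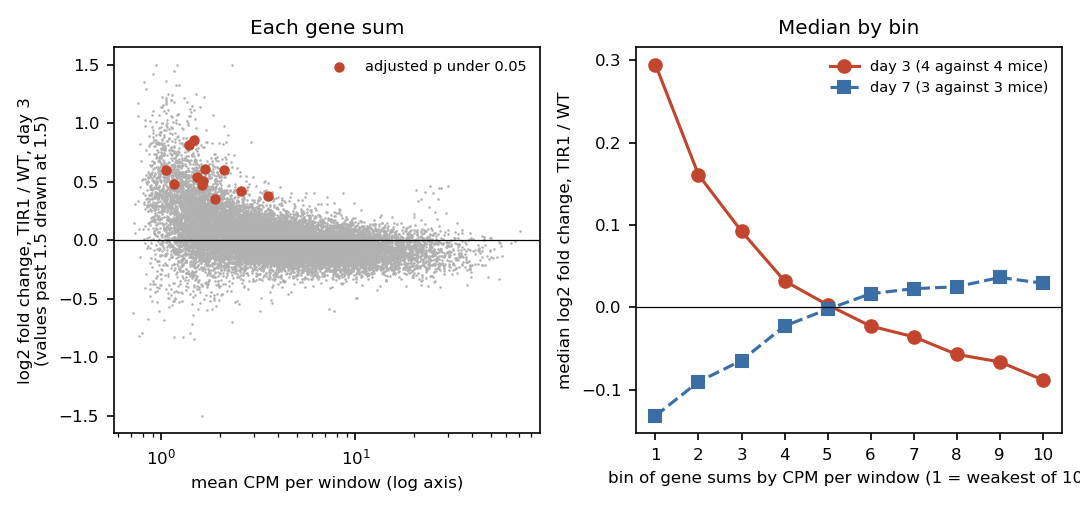
Log2 fold change (TIR1 over WT, day 3) of each gene sum against its mean accessibility in CPM per window on a log scale with the 12 that passed marked (left), and the median in each of 10 bins on day 3 and day 7 (right). The day 3 medians go down from 0.29 in the weakest bin to -0.088 in the strongest, and the day 7 medians go up.

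The libraries differed in how much of their signal lay in weak windows, and this was not a clean split by genotype. Windows were put into 5 equal bins by accessibility, and the weakest bin took 4.94, 4.07, 3.80 and 3.67% of the counts in the WT mice and 4.07, 4.20, 5.43 and 4.74% in the TIR1 mice. TIR1 replicate 3 was highest and WT replicate 1 next, so the groups overlapped (exact permutation test over mice, two-sided, p = 0.257). The strongest bin took 63.8, 65.5, 66.6 and 67.8% in the WT and 64.8, 65.3, 61.5 and 63.2% in the TIR1 mice (exact permutation p = 0.114, 0.179 adjusted over the 5 bins). With the weakest bin's share as a term in the model, 0 gene sums passed in edgeR (1944 at an unadjusted p under 0.05), and the log2 fold changes of the 12 ran from 0.28 (gene sum Adgrl2) to 0.85 (gene sum Nbea). Its part in the 12 calls was otherwise not tested.

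By distance to the nearest start site, the change in TIR1 mice went from slightly below 0 at promoters to above 0 far away. The 46820 windows within 1 kb, 19.9% of all, had a median log2 difference of -0.060. Windows at 1 to 10 kb (41615) had -0.017, those at 10 to 100 kb (108857) had 0.018, and those at 100 kb to 1 Mb (36860) had 0.14. Within 1 kb, 2.12% of windows had an unadjusted p under 0.05 on the higher side and 6.41% on the lower side, whereas at 100 kb to 1 Mb the shares were 8.34% and 1.48%. On day 7 the 4 medians lay between -0.022 and 0.030.

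Counted per mouse, the shares of signal by distance did not differ beyond their spread. Windows within 1 kb took 44.8, 45.2, 46.4 and 46.8% of the counts in the WT mice and 44.0, 46.1, 42.6 and 44.2% in the TIR1 mice. The means were 45.8% ± 0.906 and 44.3% ± 1.44 (SD, n = 4 each; exact permutation test, two-sided, p = 0.143, adjusted 0.229). Windows at 100 kb to 1 Mb took 7.93, 7.92, 7.61 and 7.37% in the WT and 8.35, 7.89, 9.29 and 8.44% in the TIR1 mice, where only TIR1 replicate 2 lay among the WT values. The means were 7.71% ± 0.267 and 8.49% ± 0.585 (SD, n = 4 each; exact permutation p = 0.0857, adjusted 0.229). With 4 against 4 mice the smallest p possible is 0.0286. The differences were -0.0604 percentage points at 1 to 10 kb and 0.775 at 10 to 100 kb.

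Distance and accessibility moved together. The trend with accessibility was seen within every distance class, while that with distance was not stepwise in every bin of accessibility. Among windows within 1 kb the median log2 fold change went from 0.12 in the weakest bin of all windows to -0.11 in the strongest. Among windows at 100 kb to 1 Mb it went from 0.24 through 0.12 to -0.026. In each bin the farthest windows thus had the higher median of the 2 classes. Neither pattern was tested apart from the share of signal in weak windows given above.

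**Figure D3:**
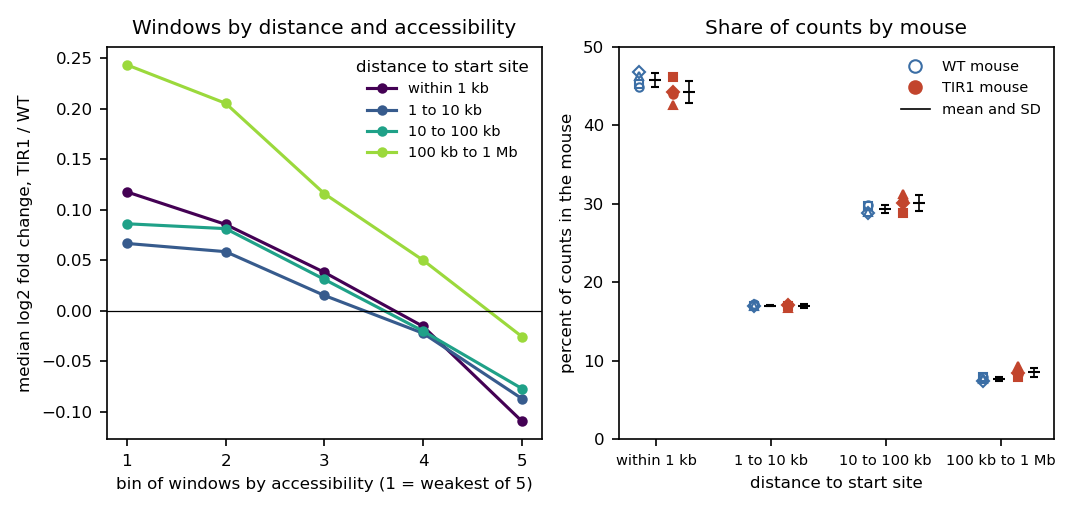
Left, median log2 fold change (TIR1 over WT, day 3) of windows in 4 classes of distance to the nearest start site and 5 bins of accessibility; right, percent of each mouse's counts in the 4 classes, 1 point per mouse, with the mean and SD. The WT and TIR1 shares overlap in every class, and the medians run from 0.24 for weak windows at 100 kb to 1 Mb to -0.11 for the strongest windows within 1 kb.

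At promoters the leading differences did not pass. Gja1 was again among them: its promoter windows had 17.5, 17.7, 16.03 and 20.1 CPM in the WT mice and 29.7, 27.8, 31.4 and 30.3 CPM in the TIR1 mice, groups that did not overlap and a log2 difference of 0.74 ± 0.14 (adjusted p = 0.108). Vegfc, the growth factor of lymphatic vessels, had 15.9, 11.5, 17.3 and 13.5 CPM in the WT mice and 26.5, 25.1, 29.1 and 26.4 CPM in the TIR1 mice and a log2 difference of 0.88 ± 0.17 (adjusted p = 0.108). Plpp3, a lipid phosphate phosphatase, had 16.8, 23.6, 16.4 and 17.7 CPM in the WT mice and 25.8, 42.7, 32.6 and 30.5 CPM in the TIR1 mice and a log2 difference of 0.84 ± 0.17 (adjusted p = 0.108). These 3 sequences are the first shown above. Vwa5a had 61.9, 80.3, 67.6 and 60.7 CPM in the WT mice and 92.9, 92.4, 100.4 and 99.4 CPM in the TIR1 mice and a log2 difference of 0.51 ± 0.089 (adjusted p = 0.108). None of these 4 passed after adjustment over 11625 promoters.

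On the lower side the Pold4 promoter came first, with 110.2, 96.4, 101 and 97.2 CPM in the WT mice and 75.6, 79.6, 74.6 and 81.6 CPM in the TIR1 mice and a log2 difference of -0.37 ± 0.075 (adjusted p = 0.108). The promoter of Rhoa, which shares its windows with the divergent gene Tcta and so gives the same value for both, had 276, 216, 225 and 266 CPM in the WT mice and 181, 202, 198 and 199 CPM in the TIR1 mice and a log2 difference of -0.32 ± 0.072 (adjusted p = 0.124). Bsdc1 had 322, 292, 322 and 326 CPM in the WT mice and 259, 275, 238 and 273 CPM in the TIR1 mice and a log2 difference of -0.27 ± 0.058 (adjusted p = 0.124), and Prr11, a gene of proliferating cells, 482, 383, 412 and 446 CPM in the WT mice and 345, 372, 331 and 369 CPM in the TIR1 mice and a log2 difference of -0.28 ± 0.063 (adjusted p = 0.124). In each of these 4, which were picked for a small p, the groups did not overlap. The share of all promoters without overlap was not counted.

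What these promoters hold in sequence was described with the same 6 motifs, over the 8760 tested promoters, 75.4%, that had a RefSeq sequence within 1 kb of the start site used. The ETS motif CCGGAA was present in 29.3% of them, in 23.9% of the 582 with an unadjusted p under 0.05 on the higher side and in 39.3% of the 595 on the lower side. The Sp1 motif GGGCGG was in 67.3%, 63.1% and 72.9%, and the forkhead motif GTAAACA in 2.27%, 2.58% and 1.68%. AP-1 (TGANTCA) was in 4.18%, 4.64% and 2.52%. TATAAA was in 6.61%, 6.53% and 6.55%, and the Runx motif TGTGGT in 11.96%, 11.9% and 12.6%. Over all 17274 promoters of the sequence table, whether or not a window covers them, the shares were 2.96% for forkhead, 19.3% for ETS, 7.09% for AP-1, 46.9% for Sp1, 13.4% for TATA and 14.8% for Runx. The median GC content was 61.3% over the tested promoters, 60.7% on the higher and 62.0% on the lower side. No test was made of these shares, and the groups of promoters also differ in accessibility, as described above.

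Single windows give the positions closest to passing. The 2 with the smallest p lay about 1 Mb apart on chromosome 7, and both were lower in TIR1 mice. The first, chr7:100511700-100511901, is inside Dnajb13, 3015 bp from its start site, and had 5.06, 4.46, 4.04 and 5.87 CPM in the WT mice and 3.62, 1.45, 1.65 and 2.18 CPM in the TIR1 mice. Its log2 difference of -1.28 ± 0.22 (adjusted p = 0.0827) came with groups that did not overlap. The second, chr7:101547741-101547942, is outside genes, 37750 bp from Art2b, and had 10.9, 10.3, 12.7 and 13.1 CPM in the WT mice and 8.32, 2.15, 7.45 and 5.89 CPM in the TIR1 mice, with TIR1 replicate 2 far below the other 3 and a log2 difference of -1.09 ± 0.20 (adjusted p = 0.0827). A window 17938 bp upstream of Abcg1, the cholesterol exporter (chr17:31039656-31039857), had a log2 difference of -0.71 ± 0.14 (adjusted p = 0.211). Another, 33744 bp upstream of Chrna9, an acetylcholine receptor subunit (chr5:65901010-65901211), had a log2 difference of -0.73 ± 0.15 (adjusted p = 0.211), and one inside Tmem44 (chr16:30535510-30535711) a log2 difference of -1.48 ± 0.30 (adjusted p = 0.211).

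On the higher side the smallest window p was at chr8:108847376-108847577, inside Zfhx3, a zinc finger homeobox gene. It had 2.01, 2.13, 1.51 and 2.02 CPM in the WT mice and 3.25, 4.25, 4.44 and 4.36 CPM in the TIR1 mice, with TIR1 replicate 1 nearest to WT and a log2 difference of 1.12 ± 0.22 (adjusted p = 0.211). A window inside Tspan14 (chr14:40930053-40930254) had a log2 difference of 0.76 ± 0.16 (adjusted p = 0.211), and one inside Nebl (chr2:17671531-17671732) a log2 difference of 1.01 ± 0.21 (adjusted p = 0.211). A window inside Boc (chr16:44546871-44547072) had 0.873, 0.466, 0.342 and 0.949 CPM in the WT mice and 0.362, 5.17, 1.58 and 1.53 CPM in the TIR1 mice, so that the highest value was TIR1 replicate 2 and its log2 difference of 1.90 ± 0.38 (adjusted p = 0.211) rested on few reads. A window inside Tenm1 (chrX:42638340-42638541) had a log2 difference of 1.83 ± 0.37 (adjusted p = 0.211).

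Among joined regions a gene desert came first. The region chr3:71563652-71564285, made of 5 windows and 1403752 bp from the nearest start site, had 6.95, 8.06, 7.58 and 6.76 CPM in the WT mice and 13.4, 14.3, 13.8 and 15.9 CPM in the TIR1 mice. Every TIR1 mouse was above every WT mouse, with a log2 difference of 0.97 ± 0.14 (adjusted p = 0.0882), the smallest of any region and still above the threshold. The region chr2:101569174-101569762, inside Iftap and 55347 bp upstream of Rag2, a subunit of the V(D)J recombinase, had 3.69, 2.64, 2.23 and 3.44 CPM in the WT mice and 9.50, 6.12, 8.20 and 5.60 CPM in the TIR1 mice and a log2 difference of 1.27 ± 0.22 (adjusted p = 0.341). On the lower side, chr17:45488720-45489092, 13883 bp upstream of Spats1, had 21.5, 21.3, 24.3 and 22.7 CPM in the WT mice and 13.8, 14.6, 15.6 and 14.7 CPM in the TIR1 mice, groups that did not overlap and a log2 difference of -0.61 ± 0.11 (adjusted p = 0.354). A region 30005 bp downstream of the Lbh start site (chr17:72948069-72948482) had a log2 difference of -0.61 ± 0.13 (adjusted p = 0.431), and one 18584 bp upstream of Ireb2, an iron regulatory protein (chr9:54843915-54844175), a log2 difference of -1.13 ± 0.23 (adjusted p = 0.431).

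Windows with small p-values were spread over many places, and the fullest stretch was on chromosome 7. An unadjusted p under 0.001 in edgeR was found for 524 windows (0.222% of all), 308 higher and 216 lower. Of these, 19 lay in the 2 Mb between 100 and 102 Mb of chromosome 7, or 4.60% of the 413 windows there. The next fullest of 1291 such stretches held 9. By share, some stretches with fewer windows stood higher, such as 70 to 72 Mb of chromosome 3 with 5 of 23 (21.7%). Of the 19 windows, 10 were lower in TIR1 mice and spread over 10 regions from chr7:100511700 to chr7:101600656. Their mean level was 7.44, 7.52, 7.13 and 8.48 CPM in the WT mice and 6.73, 2.01, 5.44 and 4.05 CPM in the TIR1 mice. TIR1 replicate 2 was lowest and TIR1 replicate 1 was close to the WT mice. One of them, chr7:100536911-100537112, covers the Coa4 promoter shown above, 89 bp from the start site, with 17.9, 22.6, 20.1 and 29.0 CPM in the WT mice and 24.8, 5.44, 16.7 and 12.8 CPM in the TIR1 mice.

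The other 9 windows lay in 4 adjoining regions at chr7:100674084 to chr7:100675611 and were higher in TIR1 mice on average, with log2 fold changes of 2.003 to 2.60. Their mean level was 0.592, 0.192, 0.152 and 0.244 CPM in the WT mice and 0.0804, 2.83, 0.435 and 1.54 CPM in the TIR1 mice. TIR1 replicates 2 and 4 carried the signal, while TIR1 replicate 1 lay below all WT mice, so the groups overlapped. In the mice treated for 7 days, the same 9 windows had 1.21, 0.110 and 1.56 CPM in the WT and 1.09, 1.31 and 1.37 CPM in the TIR1 mice, and the 10 windows 4.66, 7.33 and 5.18 and 4.08, 4.23 and 4.11 CPM. The level thus varied from mouse to mouse within a genotype, WT mice included. The study's methods give the Foxp3-AID allele as made in hybrid embryonic stem cells and then backcrossed, and strain-derived sequence was not tested.

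**Figure D4:**
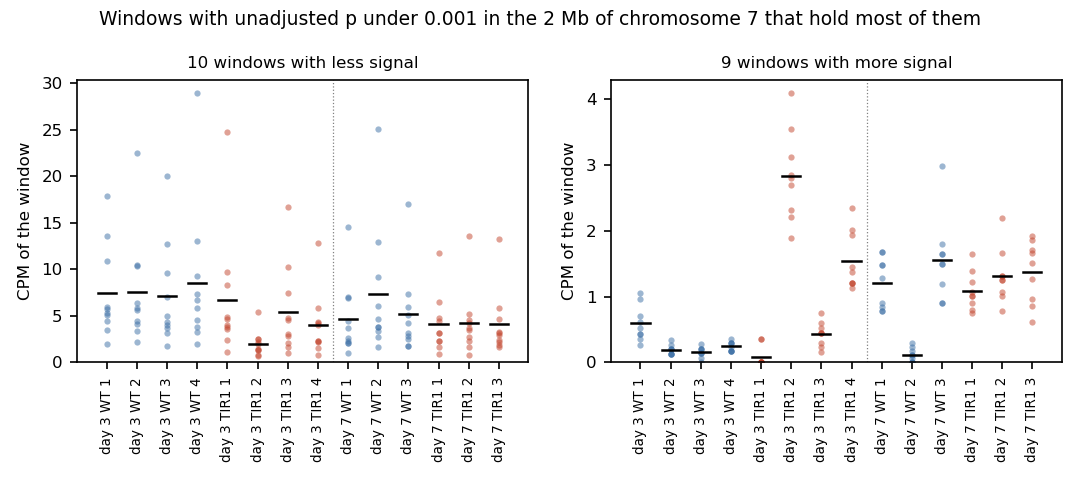
CPM of the 10 lower (left) and the 9 higher windows (right) at 100 to 102 Mb of chromosome 7 in each of the 14 mice, 1 point per window and a line at the mouse's mean. The means of the day 3 TIR1 mice spread from 0.0804 to 2.83 CPM in the 9 windows, and those of 2 of the 3 WT mice of day 7 lie above 1 CPM.

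Around ROSA26 itself, where the groups differ by design, 15 windows lay within 50 kb of the locus (chr6:113067428-113077244). Their log2 fold changes ran from -0.27 to 0.56, 2 had an unadjusted p under 0.05, 1 in each direction, and the smallest adjusted p was 0.581. The flanking genes Thumpd3 and Setd5 had gene sums with log2 fold changes of -0.025 (standard error 0.085) and -0.045 (standard error 0.060). Both intervals include 0, and both signs turn when the trend with count is taken out at the windows.

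The study names 11 genes that respond to Foxp3 loss in its own samples, here taken as 7 listed as lower and 4 as higher. For Tnfrsf4, Tnfrsf18 and Izumo1r its text gives lower protein by flow cytometry after 7 days, only in resting Treg cells. The others are named for their RNA. Neither measure is accessibility on day 3, and the activation state of the cells used here is not known. None of the 11 passed at day 3 by gene sum, promoter or most accessible window, and DESeq2 called none of their gene sums. Foxp3 itself (chrX:7579676-7595243) was covered by 3 windows, none within 1 kb of its start site. It had 14.2, 15.2, 15.7 and 14.2 CPM in the WT mice and 9.42, 11.9, 12.6 and 13.3 CPM in the TIR1 mice, so the TIR1 mice were all below the WT mice, with a log2 difference of -0.31 ± 0.14 (adjusted p = 0.262). Il2ra encodes the alpha chain of the interleukin 2 receptor. Its promoter, shown above, had 74.7, 74.0, 81.8 and 71.0 CPM in the WT mice and 66.7, 55.1, 66.7 and 66.3 CPM in the TIR1 mice, groups that did not overlap and a log2 difference of -0.25 ± 0.087 (adjusted p = 0.26), while its gene sum gave a log2 difference of -0.045 ± 0.055 (adjusted p = 0.702). Il2rb, the beta chain, had a gene sum with a log2 difference of -0.17 ± 0.074 (adjusted p = 0.245) and a most accessible window (chr15:78495042-78495243) at -0.39. The Il2rb promoter did not hold its sign, with a log2 difference from -0.26 to 0.15 when 1 mouse was left out.

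Among the other genes listed as lower, the TNF receptor family members Tnfrsf4 (OX40) and Tnfrsf18 (GITR) had gene sums at -0.20 (adjusted p = 0.276) and -0.20 (adjusted p = 0.18). Lrrc32, the GARP receptor that holds latent TGF-beta, was at -0.12, and Izumo1r, folate receptor 4, at 0.032. Of these 7 gene sums, 6 lay below 0 and 5 had an unadjusted p under 0.05, beside 7.94% of all gene sums, and their median was -0.17 against -0.00084 over all. The 4 genes listed as higher were all above 0, with a median of 0.085 (0.054 with the trend with count taken out). They are Il7r, the interleukin 7 receptor, at 0.11; Tcf7, the transcription factor TCF-1, at 0.015; Id2, an inhibitor of E proteins, at 0.055; and Sox4 at 0.13. Sox4 alone had an unadjusted p under 0.05 (adjusted 0.218). With a standard error of 0.055 for Il2ra and 0.058 for Tcf7, a 1.5-fold change in either gene sum lay outside the interval.

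**Figure D5:**
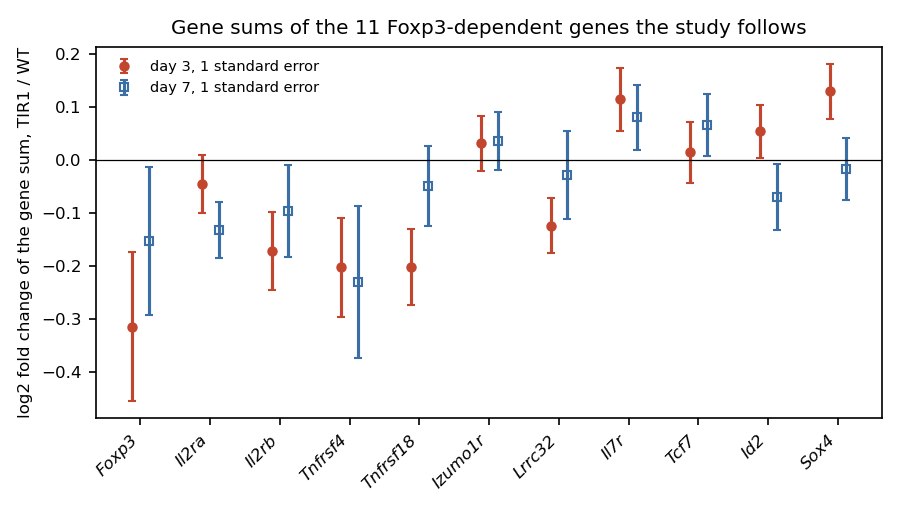
Log2 fold change (TIR1 over WT) of the gene sums of the 11 genes the study names, on day 3 and beside it on day 7, with bars of 1 standard error. On day 3 the genes listed as lower run from -0.31 for Foxp3 to 0.032 for Izumo1r, and the 4 listed as higher from 0.015 to 0.13.

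The list for interleukin 2 and STAT5 holds the receptor chains, the JAK kinases and STAT5 itself as well as genes known to respond to them. Of its 14 gene sums, 12 lay below 0, with a median of -0.12, and none passed. An unadjusted p under 0.05 was reached by 5, all lower, beside 7.94% of all gene sums on that side. Their summed level was 2934 to 3023 CPM in WT and 2839 to 2927 CPM in TIR1 mice, and the median stayed at -0.12 with the trend with count taken out. Cish, a feedback inhibitor of cytokine signalling, had 108, 112, 104 and 121 CPM in the WT mice and 95.6, 103, 91.4 and 101 CPM in the TIR1 mice (log2 difference -0.18, adjusted p = 0.196). Pim1, a survival kinase induced by STAT5, had 328, 284, 315 and 333 CPM in the WT mice and 291, 279.6, 247 and 296 CPM in the TIR1 mice (log2 difference -0.18, adjusted p = 0.175), and Socs3 was at -0.18. The list shares Il2ra and Il2rb with the genes the study names.

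Of 17 Treg signature genes, 11 lay below 0, 7 had an unadjusted p under 0.05 on the lower side (7.94% of all gene sums) and 2 on the higher side (9.44% of all), and the median was -0.082. Ikzf4 (Eos), a zinc finger partner of Foxp3, was lowest at -0.46 (adjusted p = 0.263), and Capg was at -0.18. Nt5e (CD73), the ectoenzyme that makes adenosine, had 142, 145, 143 and 145 CPM in the WT mice and 164, 158, 169 and 163 CPM in the TIR1 mice, groups apart, and a log2 difference of 0.19 (adjusted p = 0.131); DESeq2 called it. Of the 8 identity genes 6 were below 0 and 4 had an unadjusted p under 0.05, all lower (7.94% of all gene sums), among them Cd3d at -0.19 and Cd3e at -0.18, which encode chains of the T cell receptor complex. Both lists hold Ikzf4, and the identity list holds Foxp3 and Il2ra. The signature list also takes in genes of other lists described here, so these counts are not independent of one another.

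Genes of activated Treg cells were at a median of 0.068 (18 gene sums, 13 above 0), with 1 unadjusted p under 0.05 on each side, beside 9.44% of all gene sums on the higher and 7.94% on the lower side. With the trend with count taken out their median was 0.029, with 1 on the higher and 3 on the lower side. Pdcd1 (PD-1), an inhibitory receptor, had 90.2, 93.4, 86.4 and 85.7 CPM in the WT mice and 115, 100.4, 107 and 97.1 CPM in the TIR1 mice, a log2 difference of 0.24 (adjusted p = 0.14) and a DESeq2 call; Gzmb, a cytotoxic granule protease, was at -0.19. Resting T cell genes split evenly, 5 above and 5 below 0, with 0 of 10 at an unadjusted p under 0.05 in edgeR (1, lower, with the trend taken out) and 0 called by DESeq2. Early response genes of the T cell receptor had 11 of 17 below 0 (median -0.065), with 4 at an unadjusted p under 0.05 on the lower side and 1 on the higher. With the trend taken out the counts turned to 2 lower and 3 higher (median -0.031), and at their promoters 11 of 17 lay above 0 (median 0.039). By their median these genes lie in bin 8 of 10 by accessibility, where 13.6% of gene sums had such a p on the lower and 2.65% on the higher side. Dusp2, a phosphatase of MAP kinases, had 173, 155, 152 and 158 CPM in the WT mice and 134, 134, 147 and 131 CPM in the TIR1 mice, a log2 difference of -0.22 (adjusted p = 0.122) and a DESeq2 call. Egr1 and Egr3, zinc finger factors induced by the receptor, were at -0.13 and -0.16, and the nuclear receptor Nr4a2 at 0.19.

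Effector cytokine loci lay mostly above 0, 9 of 11 with a median of 0.18 and 3 with an unadjusted p under 0.05, all higher, and none passed. On that side 9.44% of all gene sums had such a p, and 16.4% in bin 3 of 10 by accessibility, where these loci lie by their median. With the trend with count taken out the median was 0.049. Il17a, the cytokine of type 17 helper cells, had 7.00, 5.77, 6.19 and 9.22 CPM in the WT mice and 17.2, 7.54, 22.2 and 8.31 CPM in the TIR1 mice: TIR1 replicates 1 and 3 were high and the other 2 lay below WT replicate 4, with a log2 difference of 0.94 (adjusted p = 0.142). Il2 was at 0.27 and Csf2 at 0.27. The helper lineage factors had a median of -0.0060 over 8 (-0.033 with the trend taken out), with Runx3 at -0.20 and Eomes at 0.12.

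Cell cycle genes (15) had a median of 0.017, with 3 at an unadjusted p under 0.05 on the lower and 1 on the higher side, and 1 on each with the trend taken out. In bin 9 of 10 by accessibility, where they lie by their median, 16.6% of gene sums had such a p on the lower and 1.23% on the higher side. Birc5, the mitotic protein survivin, had 46.1, 36.1, 38.7 and 43.8 CPM in the WT mice and 34.8, 27.6, 31.7 and 32.0 CPM in the TIR1 mice, groups apart, a log2 difference of -0.40 (adjusted p = 0.101) and a DESeq2 call. Interferon response genes (11) had a median of -0.058, with 1 such p on each side, beside 9.44% of all gene sums on the higher and 7.94% on the lower side. Ifi44 had 3.54, 5.31, 3.93 and 3.97 CPM in the WT mice and 6.76, 9.46, 6.59 and 7.97 CPM in the TIR1 mice, groups apart, a log2 difference of 0.89 (adjusted p = 0.0844) and a DESeq2 call, while Stat2 was at -0.25. Heat shock genes (10) had a median of -0.040 (-0.0025 with the trend taken out), with 0 at an unadjusted p under 0.05 in edgeR and 0 called by DESeq2, beside a median of 0.25 on day 7. The part of the study's own day 3 RNA lists that could be used here gave medians of 0.036 (6 genes higher in RNA; 0.016 with the trend taken out) and -0.084 (8 genes lower in RNA, 4 of them lower at an unadjusted p under 0.05, beside 7.94% of all gene sums). These RNA lists share members with the genes the study names.

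Twist1 and Epha3, among the 12, are better known from mesenchymal cells than from T cells, and marker lists of stromal and endothelial cells were drawn up after the 12 were seen. The study's gate for Treg cells is CD4+ TCRβ+ ZsGreen+, and how many other cells these libraries hold was not measured here. Of 14 stromal markers, 12 had a value and all 12 lay above 0 (median 0.22, 0.17 with the trend with count taken out), 3 had an unadjusted p under 0.05, all higher, and DESeq2 called Cxcl13, a chemokine of lymphoid stroma, at 0.97. Their summed level was 279 to 312 CPM in WT and 325 to 358 CPM in TIR1 mice, with no overlap. Of 10 endothelial markers, 6 had a value and 4 of these were above 0 (median 0.18, 0.060 with the trend taken out; summed level 279.8 to 338 CPM in WT and 300.1 to 343 CPM in TIR1 mice), and DESeq2 called Cdh5, VE-cadherin, at 0.31. For the lists of B cell, myeloid, CD8 T cell and NK cell markers the medians were 0.16, -0.11, 0.088 and 0.044, over 7, 8, 2 and 4 genes, and with the trend taken out 0.014, -0.22, 0.00056 and 0.041. By their median the stromal markers lie in bin 2 of 10 by accessibility, where all gene sums had a median of 0.16 and 18.7% had an unadjusted p under 0.05 on the higher side, beside 9.44% of all. The part of other cells in the 12 calls was not tested.

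The day 3 differences were set beside those of day 7, where 3 TIR1 and 3 WT mice had been treated for 7 days. The days share no mouse. Over all 16213 gene sums with a value on both days, 49.2% were above 0 on day 7. Of the 100 gene sums with the smallest p on the higher side at day 3, 47 were above 0 on day 7, and their median went from 0.44 to -0.017. Of the 100 on the lower side, 35 were above 0, and the median went from -0.29 to -0.025. Both sets were chosen by their day 3 sign and p, so some shift towards 0 in other mice is built in. Among the 12 gene sums that passed, 6 were above 0 on day 7. Gja1 had 0.31 (adjusted p = 0.68 in edgeR), Twist1 0.21, Epha3 0.17, Ccdc50 0.12, Tmem161b 0.11 and Boc 0.025. Below 0 were Khdrbs3 at -0.32, Hlf at -0.31, Plscr4 at -0.23, Nbea at -0.23, Iyd at -0.10 and Adgrl2 at -0.023. The test of the difference between the days, the interaction of day and genotype over all 14 libraries in edgeR, called 0 gene sums (smallest adjusted p = 0.237; 1733 at an unadjusted p under 0.05) and 0 regions (smallest adjusted p = 0.644; 9599 at an unadjusted p under 0.05). On day 7 alone edgeR called 0 gene sums, with 1152 at an unadjusted p under 0.05, and 11 windows.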

How the data were processed

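Nuclei of sorted cells had been transposed with Tn5 and sequenced in pairs. The deposited file is 1 table of raw counts per window of 201 bp around peak summits, with 14 library columns, all of which were matched to a sample by name. Per the labels and the study's methods, the authors aligned reads to mm10 (GRCm38) with Bowtie2, called peaks with MACS2, merged reproducible peaks over samples and counted with featureCounts, and tested with DESeq2; whether reads were shifted for the transposase is not given in the sources used here. Neighbouring windows overlap (133035 of them do), so a read can count more than once, and PCR reads without molecular identifiers are not independent molecules.

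Counts were used as deposited, with a minimum mean count of 10. Windows were given to the nearest of 21215 protein-coding start sites (strand from RefSeq for 17274 genes and from GENCODE by symbol for 3941; 416 genes had none). The test was edgeR 4.0.16 (R 4.3.3; TMM, glmQLFit, glmQLFTest, genotype as the only term), with Benjamini-Hochberg adjustment over each whole level and a threshold of 0.05; DESeq2 1.42.0 and limma 3.58.1 (loess offsets) served as alternatives. Standard errors are the log2 fold change divided by the square root of the F value. CPM values use TMM library sizes. Shares of counts were compared with exact permutation tests over mice (70 splits). The edgeR test with genotype as the only term was run on simulated counts, with 200 features changed by known folds at each level. The alternatives, the interaction and the permutation tests were not run on simulated data.

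Named were the features that passed, up to 10 per direction, or the 5 with the smallest p where fewer than 5 passed; 11 genes the study names; the genes flanking ROSA26; and up to 4 members of each list. Some features that this rule takes in are not reported here. The members and lists were chosen with earlier results of these data known, and the stromal and endothelial lists, the window-level trend, the weak-window term and Zfhx3, Coa4 and the chromosome 7 interval were chosen after values were seen. Replicate numbers recur in both groups, and the check of whether they pair the libraries stands with the alternatives. Exons and introns were not told apart, and sequences of windows were not used here because the genome at hand is of another build.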

Additional observations from a re-analysis of the deposited data

Results flagged for a closer look

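Among 164 groups of 4 mice examined for the named features, 7 had 1 mouse far enough from the other 3 to pass Dixon's test at the 95% level, and chance gives about 1 in 20 groups. TIR1 replicate 1 was the far one for the chromosome 8 window inside Zfhx3, at 3.25 CPM, and for the Abcg1 window on chromosome 17, at 9.40 CPM. WT replicate 1 was lowest for the Nbea gene sum at 10.5 CPM and highest for Epha3 at 46.5 CPM, both among the 12 that passed. The Bsdc1 promoter had WT replicate 2 at 292 CPM, and the Tnfrsf4 gene sum had WT replicate 4 at 47.3 CPM. For the Il2ra promoter it was TIR1 replicate 2, at 55.1 CPM.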

How the results depend on the processing

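Most values kept their direction and side of the threshold: of the values for single named features under an alternative, 1635 did, 98 were no longer past the threshold that they had passed, 85 newly passed it and 41 changed sign, and of those for whole comparisons 139 stayed, 38 moved by over 1.5 times and 2 changed sign. For windows (0 as reported) the count was 2 at an adjusted p under 0.1, 3 when the prefix of the mouse name was a term, 1 when the index group was and 0 to 30 with 1 mouse left out. Regions (0) gave 26 with DESeq2 and 1 each with loess offsets, with a mean count of 50 and at an adjusted p under 0.1. Gene sums (12) gave 110 at an adjusted p under 0.1, 308 with DESeq2, 5 with the prefix, 40 with all 14 libraries in 1 fit, 69 with 1 window per region, 2 with window-level loess offsets, 0 with the weak-window share as a term and 0 to 149 with 1 mouse left out. Promoters (0) gave 44 with DESeq2, 1 with all 14 libraries and 0 to 4 with 1 mouse left out.

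Mice with the same replicate number did not deviate together, since the correlation of same-numbered deviations was -0.021, -0.085, -0.019 and 0.039 over 62231 windows. With the replicate block, 4 windows, 0 regions, 132 gene sums, 6 promoters and 1 interaction gene sum passed, and with the block and loess offsets 1, 0, 145 and 4.

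The share of counts at 1 to 10 kb changed sign with a mean count of 50 (0.040 percentage points) and ran from -0.11 to 0.040 with 1 mouse left out. Some log2 fold changes changed sign, to values of up to 0.16 (Il2rb promoter with the weak-window term). With loess offsets they were 0.060 for the Il2ra window, 0.023 for the Id2 window, 0.0075 for the Thumpd3 gene sum and 0.0011 for the Setd5 promoter, and with the block added 0.056, 0.022, 0.0094 and 0.0024. Window-level loess gave 0.0068 for the Thumpd3 and 0.030 for the Setd5 gene sum and 0.030 for the Setd5 promoter. The weak-window term gave 0.058 for the Lrrc32 window, 0.077 for the Thumpd3 gene sum, 0.16 for the Il2rb promoter and 0.026 for the Thumpd3 promoter. A mean count of 50 gave 0.024 for the Il2ra window, 1 window per region -0.0053 for the Izumo1r gene sum, windows within 100 kb -0.035 for the Id2 gene sum, and windows within 2 kb 0.063 and 0.089 for the Il2rb and Il7r promoters. With 1 mouse left out the ranges were -0.075 to 0.0035 (Il2ra gene sum), -0.040 to 0.050 (Tcf7), -0.071 to 0.034 (Thumpd3), -0.18 to 0.073 (Il2ra window), and for promoters -0.0061 to 0.051 (Id2), -0.26 to 0.15 (Il2rb), -0.057 to 0.027 (Il7r), -0.041 to 0.015 (Setd5), -0.089 to 0.012 (Thumpd3) and -0.20 to 0.0014 (Tnfrsf4). The cause was not tested for any of these. At this depth a 1.5-fold change lay outside the 95% interval for 30.3% of windows and 81.4% of gene sums.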
